A study of Mus musculus with 15 samples.

Results

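The genes described here are the Ube2 ubiquitin-conjugating enzymes, taken as every probe set on a mouse expression array whose annotation names exactly 1 gene with a symbol beginning in Ube2. The rule found 50 probe sets of 27 genes, among 22626 probe sets and 12393 genes tested on the array. A further 4 probe sets, annotated with a Ube2 gene together with other genes (Ube2l3 among them), were not members. A gene symbol was the only criterion by which a probe set became a member. The family itself was chosen with earlier results of these data known.

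Primary neural stem cells from female mice of strain C57/B16, 6 weeks old, were grown as neurospheres, which are free-floating clusters of stem and progenitor cells. Control cultures were compared with cultures given CD95L-T4, a trimeric form of the ligand that engages CD95 (Fas), a death receptor, and RNA was taken 48 h after stimulation. RNA was that of the whole cell (total) or that bound to polysomes (polysomal), the mRNA carried by several ribosomes at once, so that 15 arrays formed 4 groups. Control cultures gave 4 arrays of each RNA, and CD95L-T4 cultures gave 4 of total and 3 of polysomal RNA. No allele, transgene or deletion is named in the labels. The titles call the replicates biological but do not say whether cultures came from separate animals, so p-values measure the spread between these arrays.

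Ubiquitin is attached to proteins in a relay. An activating enzyme (E1) charges ubiquitin, a conjugating enzyme (E2) carries it as a thioester, and a ligase (E3) brings the E2 to the substrate. With RING ligases the ubiquitin passes straight from the E2, so the E2 helps to set which chain is built, whereas HECT and RBR ligases first take the ubiquitin onto themselves. In dividing neural progenitors this system is best known for timing the cell cycle and for removing damaged or misfolded proteins.

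Each value is a log2 signal that was normalised between arrays before deposit, so a difference of 1 is a doubling relative to the other transcripts of the same array and not an absolute amount. A difference was called when its p-value from limma, adjusted over all probe sets of the comparison, was below 0.05. Array medians lay between 6.83 and 6.98. Of the 10 measured neural stem and progenitor markers, 9 lay above the median probe set (median percentile 90.1). This held for 1 of 6 neuronal, 1 of 4 oligodendrocyte, 1 of 4 astrocyte and 0 of 6 microglial markers. No marker of these lists was called between CD95L-T4 and control, but neither was any other probe set (0 of 22626). The marker calls therefore cannot show whether CD95L-T4 changed the mix of cells. Between the fractions 5 of the 10 stem and progenitor markers were lower and 1 was higher in control polysomal RNA, while 2 of 4 astrocyte, 2 of 6 microglial, 2 of 3 ependymal and 1 of 4 endothelial markers were higher, 1 of 4 oligodendrocyte markers was lower, and none of 6 neuronal or 4 fibroblast markers was called. Over all genes the shares were 33.5% higher and 23.2% lower. Whether such marker shifts have a part in the differences given here was not tested.

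Most Ube2 transcripts were higher in polysomal than in total RNA. In control cultures 42 of the 50 probe sets (84%) were called higher and 0 were called lower. Over all probe sets, 29.8% were called higher and 26.3% lower in the same comparison. With the dimmest 50% of probe sets left out, 38 of 44 Ube2 probe sets were called higher and 0 lower. Of all the probe sets then kept, 78.4% were called, 4337 of them higher and 4530 lower. Counted by gene, with the probe set of the highest mean signal standing for each, 22 of 27 genes were higher and 0 lower, against 33.5% and 23.2% of all genes. The median difference was 0.60 for the Ube2 probe sets and 0.06 for all probe sets, and it was 0.56 against 0.10 by gene. Individual Ube2 probe sets ranged from -0.28 to 1.23. For 41 of the 50 every control polysomal array lay above every control total array, which held for 28.6% of all probe sets.

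**Figure D1:**
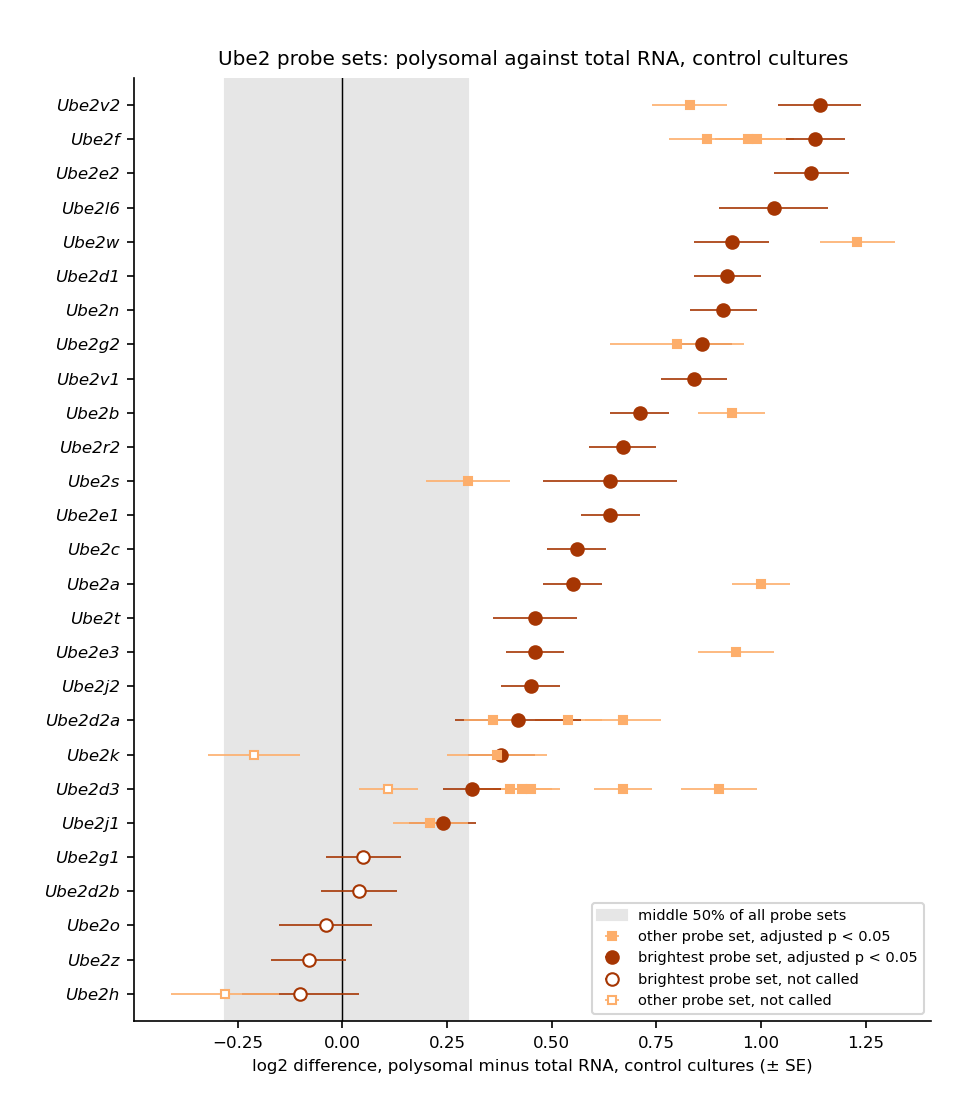
Difference in log2 signal between polysomal and total RNA of control cultures (horizontal axis, with SE) for the 50 Ube2 probe sets, one line per gene; circles are the probe set with the highest mean signal, squares the others, filled symbols are called and open ones are not, and the grey band holds the middle 50% of all probe sets, from -0.28 to 0.30. Most filled symbols lie to the right of the band, and the 5 genes at the bottom have open circles near 0.

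RNA fraction is bound up with preparation in these samples. The labels name a commercial kit for total RNA but phenol and chloroform for polysomal RNA, and they list polyA RNA as the molecule of the polysomal samples only, so fraction, extraction and molecule cannot be told apart. The 3' minus 5' signal of the beta-actin control probe sets was 0.41 in control total arrays (range 0.28 to 0.57) and 0.77 in control polysomal arrays (0.74 to 0.81), and that of Gapdh was -0.28 and 0.02. The mean signal of the poly-A labelling controls was 6.93 to 7.5 on control total arrays and 7.83 to 8.35 on control polysomal arrays. For CD95L-T4 cultures it was 6.92 to 7.95 on total and 7.6 to 9.1 on polysomal arrays, which overlap. The part of these shifts in the Ube2 differences was not tested. Setting the arrays to equal medians moved the median of all probe sets from 0.06 to 0.15 and raised the share of calls that were higher from 53.1% to 63.3%. Of all 22626 probe sets 8894 were then called higher, up from 6745, beside 43 of 50 Ube2 probe sets.

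Short stretches around annotated transcription starts are shown for genes that rose strongly and for genes that did not pass the test, because the first transcribed bases of an mRNA are a known site of translational control. They come from RefSeq (GRCm38.p6) and read 5′ to 3′ on the gene's strand, with 20 bases before the start in lower case and the first 10 transcribed bases in capitals. Ube2f and Ube2e2 each have another annotated start in that source, which is not shown. No window was available for Ube2d2a, Ube2e3, Ube2g2, Ube2o, Ube2v2 and Ube2w. Of the genes shown, the first 3 rose and the last 2 did not pass.
Ube2f, chr1:91250284-91250313, plus strand: gcccactgcggtcacggcgcAGTCCCCGCC
Ube2e2, chr14:18893404-18893433, minus strand: tgaccctgcgcgtgtccgctGGGGCCCGCG
Ube2n, chr10:95515142-95515171, plus strand: tccactcgagcgtgaggagaGCGGAGCCGG
Ube2g1, chr11:72607241-72607270, plus strand: cagcgcgcttgcgcggagcgGCCCTGCGCG
Ube2z, chr11:96065355-96065384, minus strand: ctggggaagccgagggtgggGACACTCTGG

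The pattern searched at the start was a C followed by 4 bases that are each C or T, on the transcribed strand, which is the opening of the terminal oligopyrimidine tract of ribosomal protein mRNAs. It was found in 0 of the 29 start windows available for 21 Ube2 genes and in 2.51% of all 32851 windows. The stretch of 300 bases around the start had a median GC content of 68% for Ube2 windows and 52.7% for all. The CCAAT letters, on either strand, were present in 20.7% of the Ube2 stretches and 37.4% of all. The windows describe annotated starts, and the starts used in these cells were not measured.

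The E2s that build lysine-63 chains, used in DNA repair and inflammatory signalling rather than in proteasomal decay, were all higher in polysomal RNA, with 4 of 4 probe sets called and differences of 0.83 to 1.14. For this and the role groups that follow, the share of all probe sets called higher was 29.8%. Ube2v2 is a catalytically inactive partner that steers Ube2n to lysine 63. Its control total arrays read 10.11, 10.07, 10.19 and 10.17 and its control polysomal arrays 11.43, 11.41, 11.14 and 11.11. All polysomal arrays lay above all total arrays, and replicates 1 and 2 were higher than 3 and 4 within the polysomal group. The group means were 10.13 ± 0.055 and 11.27 ± 0.17 (SD, n = 4 each), a difference of 1.14 ± 0.10 (SE), or 2.20-fold (adjusted p = 4.97e-08). The second Ube2v2 probe set differed by 0.83.

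Ube2n, the active E2 of this pair, read 10.79, 10.69, 10.65 and 10.68 in control total RNA and 11.58, 11.67, 11.57 and 11.63 in control polysomal RNA. The groups did not overlap and each was narrow, at 10.70 ± 0.061 and 11.61 ± 0.046. The difference was 0.91 ± 0.08, or 1.88-fold (adjusted p = 3.3e-08). Ube2v1, the other inactive partner, rose by a similar amount, 0.84 (adjusted p = 3.6e-08), from 11 ± 0.038 to 11.84 ± 0.047.

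The E2s of the ubiquitin-like modifiers NEDD8 and ISG15 were also higher throughout, with 5 of 5 probe sets called and differences of 0.87 to 1.13. Ube2f passes NEDD8 to cullins, the step that switches cullin-RING ligases on. It read 10.55, 10.49, 10.49 and 10.46 in control total RNA and 11.61, 11.63, 11.66 and 11.60 in control polysomal RNA. The replicates of each group lay within 0.1 of each other and the groups were far apart, at 10.50 ± 0.038 and 11.62 ± 0.026. The difference of 1.13 ± 0.07, or 2.18-fold, had the smallest adjusted p of any Ube2 probe set in this comparison (5.29e-10). All 4 Ube2f probe sets were called, between 0.87 and 1.13.

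Ube2l6 serves ISG15, an interferon-induced modifier, and its probe set was dim (percentile 32.98 of mean signal over all probe sets). Control total arrays read 5.03, 4.93, 4.83 and 4.47, and control polysomal arrays 5.72, 6, 5.77 and 5.90. The total group was the wider one, with replicate 4 lowest, and the groups did not overlap. Means were 4.81 ± 0.24 and 5.85 ± 0.13, a difference of 1.03 ± 0.13, or 2.05-fold (adjusted p = 2.15e-06).

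The E2s that work with many RING ligases, namely the Ube2d and Ube2e families, together with Ube2w, had 17 of 19 probe sets called higher, and their differences spread from 0.04 to 1.23. Ube2e2 read 8.23, 8.08, 8.11 and 8.22 in control total RNA and 9.18, 9.34, 9.21 and 9.41 in control polysomal RNA. These groups lay about a doubling apart with no overlap. Means were 8.16 ± 0.076 and 9.29 ± 0.11, a difference of 1.12 ± 0.09, or 2.18-fold (adjusted p = 5.01e-09). Its relatives differed less by the same measure, with 0.64 for Ube2e1 (adjusted p = 4.53e-07) and 0.46 for Ube2e3 (adjusted p = 3.18e-05), although the second, dimmer Ube2e3 probe set differed by 0.94.

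Ube2w, which places a single ubiquitin on the N terminus of substrates, read 9.13, 9.21, 9.25 and 9.30 in control total RNA and 10.23, 10.26, 10.03 and 10.08 in control polysomal RNA. The groups did not overlap. The difference was 0.93 ± 0.09, or 1.9-fold (adjusted p = 1.15e-07), and the second Ube2w probe set gave 1.23, the top value of all Ube2 probe sets.

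Within the Ube2d family, whose members are the general-purpose partners of RING ligases, Ube2d1 stood at the upper end. It read 8.61, 8.61, 8.65 and 8.52 in control total RNA and 9.62, 9.54, 9.51 and 9.39 in control polysomal RNA. Every polysomal array was above every total array, and the difference was 0.92 ± 0.08, or 1.89-fold (adjusted p = 1.84e-08). Ube2d3 differed by 0.31 (adjusted p = 0.000594) at its brightest probe set, with 6 of its 7 probe sets called and values from 0.11 to 0.90. Ube2d2a differed by 0.42 ± 0.15 (adjusted p = 0.0243), and its 4 probe sets, all called, ran from 0.36 to 0.67. The call of its brightest probe set was lost without control total replicate 2 (0.40, adjusted p = 0.0571), without control polysomal replicate 2 (0.40, adjusted p = 0.0551) and, with every array kept, under quantile normalisation of all arrays (0.34, adjusted p = 0.06). Ube2d2b, a close relative with a dim probe set (percentile 1.72), differed by 0.04 (adjusted p = 0.726) and read between 2.58 and 2.97 in all 8 control arrays.

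The E2s of endoplasmic reticulum quality control, which tag misfolded proteins drawn back out of that compartment, had 5 of 6 probe sets called higher, from 0.05 to 0.86. Ube2g2 read 8.93, 8.88, 8.90 and 8.91 in control total RNA and 9.77, 9.77, 9.82 and 9.72 in control polysomal RNA. Both groups were tight and separate, and the difference was 0.86 ± 0.07, or 1.82-fold (adjusted p = 1.4e-08). Ube2j2, which is anchored in the membrane, differed by 0.45 (adjusted p = 2.87e-05). Ube2j1, also membrane-anchored, differed by 0.24 ± 0.08 (adjusted p = 0.0218), a call that was lost without control total replicate 2 (0.22, adjusted p = 0.0602) and without control polysomal replicate 4 (0.21, adjusted p = 0.0669).

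Ube2g1, the nearest to Ube2g2 in name and placed in the same role group here, gave 0.05 ± 0.09 (adjusted p = 0.649). Control total arrays read 10.30, 10.38, 10.39 and 10.40, and control polysomal arrays 10.21, 10.43, 10.45 and 10.58. The polysomal arrays lay on both sides of the total arrays. The difference between Ube2g1 and Ube2g2 was not itself tested.

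The 2 E2s of the anaphase-promoting complex, the ligase that ends mitosis, had 3 of 3 probe sets called higher. Ube2c, which starts the chains, read 12.39, 12.41, 12.27 and 12.23 in control total RNA and 12.83, 12.91, 12.92 and 12.90 in control polysomal RNA. The groups did not overlap, and the difference was 0.56 ± 0.07 (adjusted p = 2.22e-06). Ube2s, which extends them through lysine 11, read 11.05, 11.88, 11.55 and 11.69 in total RNA, with replicate 1 well below the others, and 12.22, 12.17, 12.33 and 12.02 in polysomal RNA. Its difference was 0.64 ± 0.16 (adjusted p = 0.00251).

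The E2s of DNA repair and histone ubiquitination had 5 of 5 probe sets called higher, from 0.46 to 1. Ube2a and Ube2b, the paired partners of the RAD18 and RNF20 ligases, differed by 0.55 (adjusted p = 1.85e-06) and 0.71 (adjusted p = 1.47e-07). Ube2t, the E2 of the Fanconi anaemia pathway, differed by 0.46 (adjusted p = 0.000742). Among E2s of cullin ligases and lysine-48 chains, the classical signal for the proteasome, Ube2r2 differed by 0.67 (adjusted p = 7.07e-07) and Ube2k by 0.38 (adjusted p = 0.000646). A dim Ube2k probe set stood against its other 2, at -0.21 (adjusted p = 0.113), and was called lower, at -0.29 (adjusted p = 0.0244), when all arrays were quantile normalised together.

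The remaining E2s were the exception to the pattern. None of the 4 probe sets of Ube2h, Ube2o and Ube2z was called, and they ranged from -0.28 to -0.04. With Ube2g1 and Ube2d2b these make up the 5 uncalled genes, which were singled out after their values had been seen.

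Ube2z, which takes ubiquitin from the alternative E1 Uba6, read 10.09, 10.04, 10.10 and 10.06 in control total RNA and 9.86, 10.01, 10.02 and 10.10 in control polysomal RNA. The groups overlapped, and the difference was -0.08 ± 0.09 (adjusted p = 0.481). Ube2o, a large enzyme that acts as E2 and E3 in one and clears surplus proteins in maturing red cells, read 7.48, 7.41, 7.14 and 7.09 in total RNA and 7.22, 7.13, 7.36 and 7.26 in polysomal RNA. All 4 polysomal arrays lay inside the range of the total arrays (-0.04 ± 0.11, adjusted p = 0.792). The sign of the Ube2o and Ube2z values turned when arrays were set to equal medians (0.05 and 0.02).

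Ube2h, the E2 of the CTLH ligase, read 8.46, 8.42, 8.51 and 8.43 in control total RNA and 8.18, 8.29, 8.41 and 8.55 in control polysomal RNA. Replicate 4 of the polysomal group was above all total arrays and the other polysomal arrays were below them (-0.10 ± 0.14, adjusted p = 0.591). The second Ube2h probe set gave -0.28 ± 0.13 (adjusted p = 0.0712). It was called lower without control polysomal replicate 4 (-0.35, adjusted p = 0.0381), without CD95L-T4 polysomal replicate 1 (-0.28, adjusted p = 0.0413) and when the compared groups were fitted alone (-0.28, adjusted p = 0.0401).

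**Figure D2:**
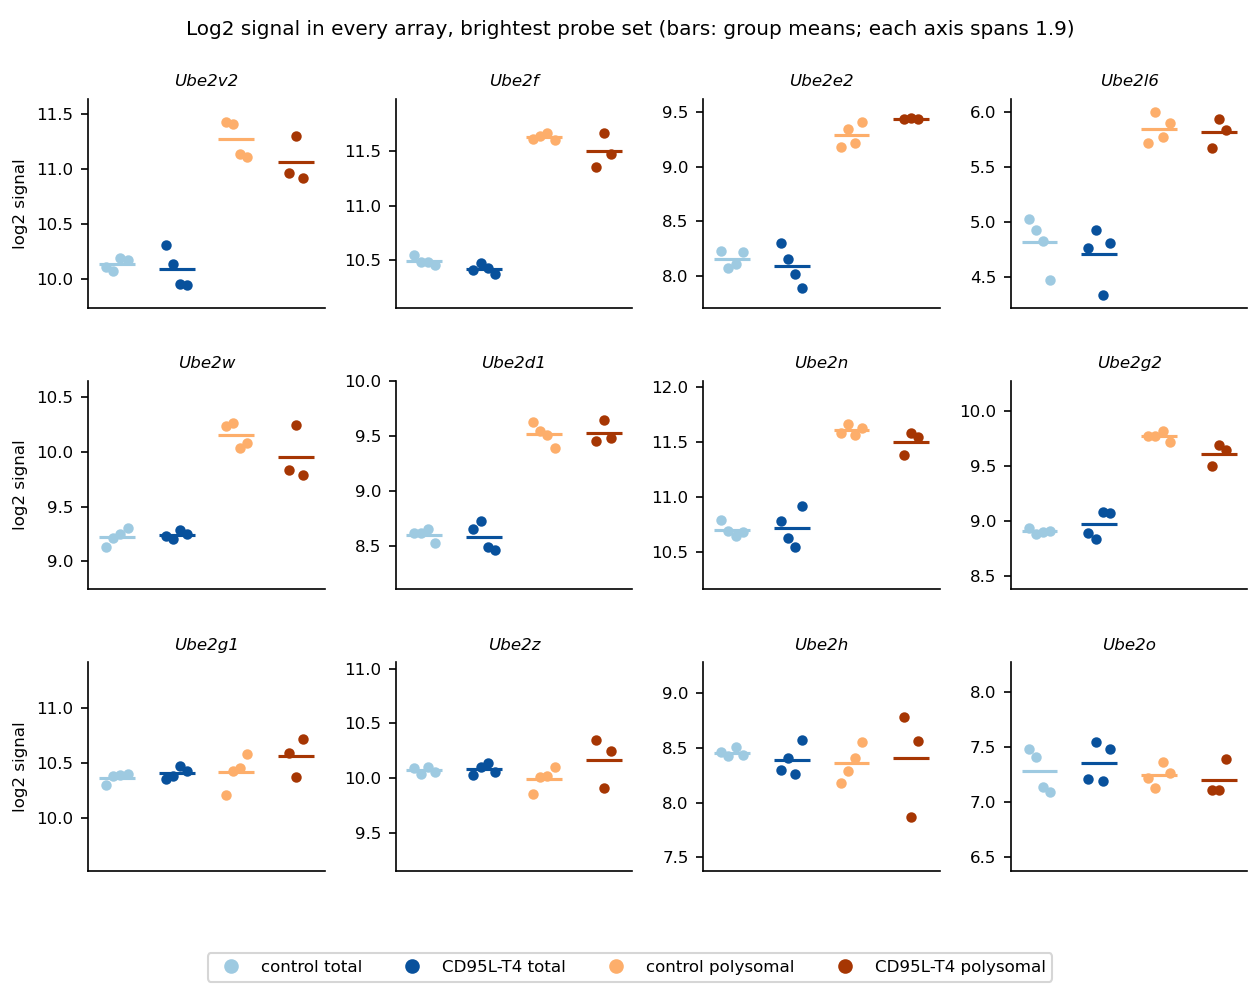
Log2 signal (vertical axis, every panel spanning the same range of 1.9) in each of the 15 arrays for 12 Ube2 genes, brightest probe set; points are arrays coloured by group and bars are group means. In the top 8 panels the polysomal arrays of both treatments lie above the total arrays, and in the bottom 4 (Ube2g1, Ube2z, Ube2h, Ube2o) the groups overlap.

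Where a gene had several probe sets, 13 genes in all, their differences often varied in size. The 7 probe sets of Ube2d3 spanned 0.11 to 0.90, the pair for Ube2e3 0.46 to 0.94, the pair for Ube2a 0.55 to 1 and the pair for Ube2s 0.30 to 0.64. Both probe sets of Ube2g2 (0.80 and 0.86) and of Ube2j1 (0.21 and 0.24) gave close values. For Ube2k alone did the sign differ between probe sets of a gene, and the negative value there did not pass the test. Probe sets of a gene share its RNA and are not independent replicates. With the 6 probe sets left out whose suffix (_s_at or _x_at) marks possible overlap with other transcripts, 37 of 44 were called higher, a choice added after seeing the data. Over all probe sets, whatever their suffix, 29.8% were called higher. The share of all probe sets without these suffixes is not given here.

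The other steps of the ubiquitin relay gave a mixed picture in the same comparison, counted by gene at the brightest probe set, where the quartiles of all genes were -0.19, 0.10 and 0.34. Among all genes 33.5% were called higher and 23.2% lower. Upstream of the E2s, 5 of 9 listed E1 genes were measured, and Uba1 and Uba6, which charge ubiquitin itself, were not among them. Of these 5, 0 were higher and 3 were lower, with a median of -0.21. The lower 3 were Atg7 (-0.47), Sae1 (-0.42) and Nae1 (-0.21), which serve autophagy, SUMO and NEDD8. The Nae1 call was lost when arrays were set to equal medians. Under that scaling and under quantile normalisation of all arrays 2 E1 genes were higher. In the fraction comparison of CD95L-T4 cultures Atg7 (-0.36) and Nae1 (-0.21) were again called lower. There Sae1 was not called (-0.13, adjusted p = 0.362) and Uba3 was called higher (0.38, adjusted p = 0.0138). Of 12 listed genes for ubiquitin, ubiquitin-like proteins or their fusions 5 were measured. All 5 were higher in control cultures, with a median of 1.19. Urm1, a sulphur carrier and protein modifier, differed by 1.39 (adjusted p = 1.95e-09), Nedd8 by 0.79 (adjusted p = 1.07e-08) and Fau, a ubiquitin-like fusion with a ribosomal protein, by 0.86 (adjusted p = 1.48e-08).

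E2 enzymes and E2-like proteins named otherwise than Ube2 were divided, with 4 of 8 higher and 2 lower, against 33.5% and 23.2% of all genes. Cdc34, the cullin ligase E2 closest to Ube2r2, differed by 0.99 ± 0.06 (adjusted p = 7.88e-10), from 9.61 to 10.59. Aktip, an inactive E2 variant, differed by 1.12 (adjusted p = 1.37e-09) and Ufc1, the E2 of UFM1, by 0.96 (adjusted p = 8.27e-09). Birc6, a giant inhibitor of apoptosis that carries an E2 domain, was lower at -1.19 (adjusted p = 1.46e-07).

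Downstream of the E2s more genes were lower than higher in every list, where 33.5% of all genes were called higher and 23.2% lower. Of 15 HECT and RBR ligases 4 were higher and 9 lower (median -0.47), with Nedd4 at -1.91 ± 0.08 (3.76-fold lower, adjusted p = 2.97e-11), Huwe1 at -1.72 and Herc1 at -1.23. Of 13 anaphase-promoting complex genes, the ligase partners of Ube2c and Ube2s, 3 were higher and 9 lower (median -0.42). The scaffold subunit Anapc1 was at -1.19 and Anapc4 at -0.94, while the small subunits Cdc26 (1.53), Anapc13 (1.33) and Anapc11 (1.11) were higher.

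The cullin core, the partner of Cdc34, Ube2r2 and Ube2f, had 4 of 16 genes higher and 9 lower (median -0.26). For this and the next 2 lists too, the shares of all genes were 33.5% higher and 23.2% lower. Its adaptor Ddb1 (-1.03) and Cul7 (-1.05) were lower, and the small RING subunit Rnf7, with which Ube2f works, was higher at 1.18 (adjusted p = 6.52e-09). Of 8 endoplasmic reticulum ligases and partners, from the pathway in which Ube2g2, Ube2j1 and Ube2j2 act, 2 were higher and 5 lower (median -0.59). Sel1l (-1.85), Vcp (-1.60) and Marchf6 (-1.42) were lower and Rnf5 (1) was higher. Among 31 deubiquitinases, which remove ubiquitin, 8 were higher and 17 lower (median -0.29), with Usp22 at -1.22, Usp47 at -0.85 and Usp21 at 1.08. Of the 84 called genes in these lists none changed sign under the 3 other scalings, and at most 3 lost their call under any of them.

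**Figure D3:**
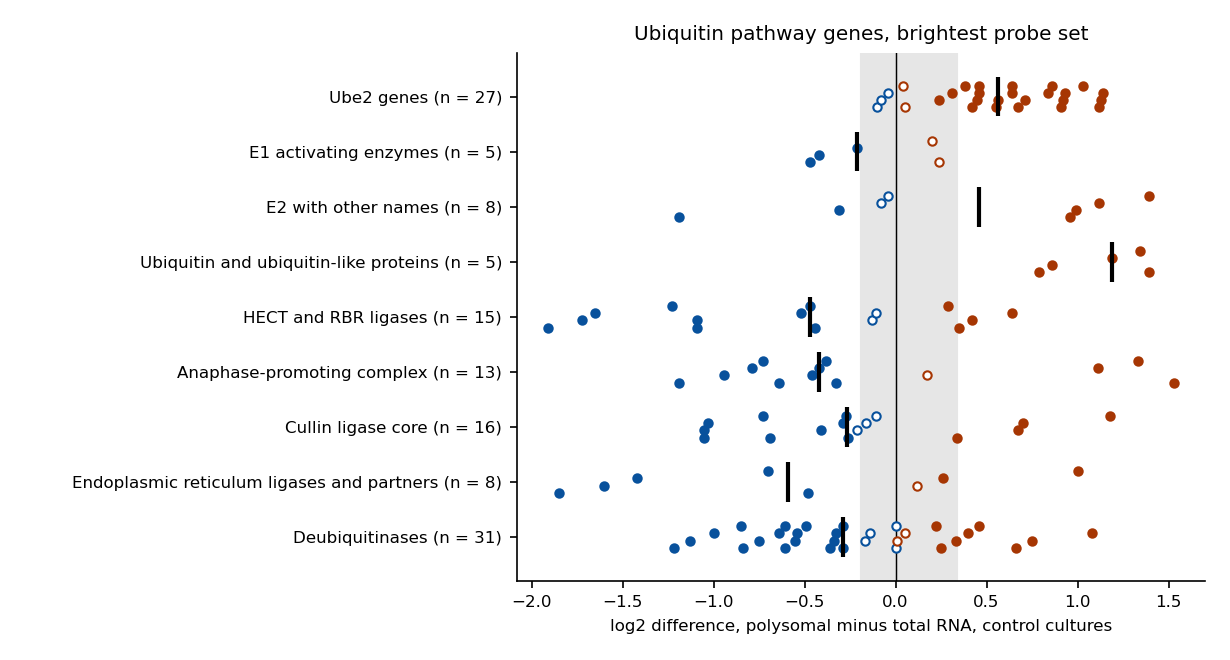
Difference in log2 signal between polysomal and total RNA of control cultures (horizontal axis) for the Ube2 genes and 8 lists of other ubiquitin pathway genes, one point per gene at its brightest probe set; red marks values above 0, blue values below 0, filled points are called, black bars are list medians and the grey band spans the quartiles of all genes, -0.19 to 0.34. The Ube2 median is 0.56, and the medians of the ligase and deubiquitinase lists lie between -0.59 and -0.26.

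The fraction comparison was repeated in cultures given CD95L-T4, whose group means come from arrays not used for the control means. All groups were fitted together, however, so both comparisons used the same variance for each probe set. Their calls are therefore not independent of each other. Again 42 of 50 Ube2 probe sets were higher and 0 lower, against 26.7% and 24.6% of all probe sets. The 42 were the same probe sets as in control cultures. With each pair of groups fitted alone, 42 Ube2 probe sets were higher in control and 41 in CD95L-T4 cultures. Of all probe sets 7336 and 5268 were then called higher. The median was 0.64 for Ube2 and 0.04 for all probe sets, the range was -0.15 to 1.34, and 41 of 50 had no overlap between the groups, against 24.9% of all. Across the 50 probe sets the differences in the 2 kinds of culture had a Pearson correlation of 0.931, given as a description, since probe sets are not independent replicates and the arrays share a preparation. Over all probe sets it was 0.96.

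Ube2e2 differed by 1.34 ± 0.09 (adjusted p = 4.08e-09) in CD95L-T4 cultures. Its CD95L-T4 total arrays read 8.30, 8.16, 8.02 and 7.89, and its polysomal arrays 9.43, 9.44 and 9.43. The polysomal arrays were nearly equal and all above the total arrays. Ube2l6 differed by 1.11, Ube2f by 1.07, Ube2s by 1.03, Ube2v2 by 0.97 and Ube2d1 by 0.94, each past the threshold. Ube2n (0.78), Ube2w (0.71), Ube2v1 (0.65) and Ube2g2 (0.64) were called as well.

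The genes not called in control cultures were not called here either, with Ube2g1 at 0.15 (adjusted p = 0.188), Ube2z at 0.09 (adjusted p = 0.462), Ube2d2b at 0.05 (adjusted p = 0.739), Ube2h at 0.02 (adjusted p = 0.934) and Ube2o at -0.15 (adjusted p = 0.295). Without CD95L-T4 polysomal replicate 2, Ube2g1 (0.25, adjusted p = 0.0339), Ube2z (0.22, adjusted p = 0.0267) and Ube2h (0.29, adjusted p = 0.0396) were called higher. Ube2g1 was also called higher (0.24, adjusted p = 0.0376) with every array kept, when arrays were set to equal medians. In the case of Ube2h that array read 7.87 and the other 2 CD95L-T4 polysomal arrays 8.78 and 8.56, while the CD95L-T4 total arrays read 8.30, 8.41, 8.26 and 8.57. The mean signal of the poly-A labelling controls was 9.10 on that array, against 7.60 and 7.72 on the other CD95L-T4 polysomal arrays and 7.83 to 8.35 on control polysomal arrays. Its part in these values was not tested.

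**Figure D4:**
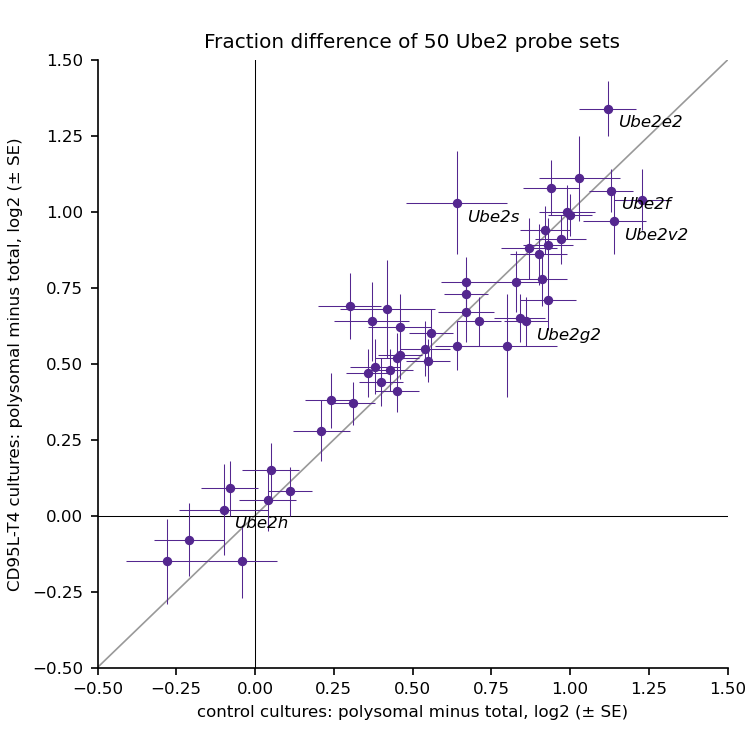
Polysomal minus total log2 signal in control cultures (horizontal axis) and in CD95L-T4 cultures (vertical axis) for the 50 Ube2 probe sets, with SE bars and the line of equality. The points follow the line, 46 of 50 lie within 0.25 of it in vertical distance, and the widest gap of 0.39 belongs to Ube2s.

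CD95L-T4 itself left no called difference on Ube2 transcripts. In total RNA 0 of 50 probe sets passed the adjusted threshold (0% of all probe sets, limma), and 2 of 50 had an unadjusted p below 0.05, against 3.74% of all. Both were second probe sets, one of Ube2f at -0.23 ± 0.09 and one of Ube2s at -0.27 ± 0.10, each with an adjusted p of 0.997. With single arrays left out the count was 0 without control total replicate 2, beside 735 of all 22626 probe sets. It was 1 without CD95L-T4 total replicate 3 or 4, beside 607 and 550 of all. It was 4 without CD95L-T4 total replicate 1 or 2, beside 1688 and 1260 of all. Over these fits the share of all probe sets ran from 2.43% to 7.46%. Differences ran from -0.30 to 0.12 with a median of -0.02. For 48 of the 50 the 95% interval lay within a 1.5-fold change in either direction, as it did for 98.2% of all probe sets, so larger shifts were outside the interval for most Ube2 probe sets.

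The brightest probe sets with the smallest p in total RNA were those of Ube2d2a, Ube2s and Ube2v1. Ube2d2a read 11.55, 11.39, 11.49 and 11.46 in control and 11.58, 11.57, 10.74 and 10.82 in CD95L-T4 cultures. CD95L-T4 replicates 1 and 2 were at or above the control level and replicates 3 and 4 below it, and the difference was -0.30 ± 0.15 (95% interval -0.62 to 0.03, adjusted p = 0.997). Ube2s read 11.74, 10.97, 11.21 and 11.26 with CD95L-T4 against the control values given above, from 11.05 to 11.88. Those groups overlapped (-0.25 ± 0.16, 95% interval -0.59 to 0.09, adjusted p = 0.997). Ube2v1 read 10.99, 10.97, 10.97 and 11.05 in control and 11.05, 11.08, 11.07 and 11.19 in CD95L-T4 cultures (0.10 ± 0.08, adjusted p = 0.997).

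In polysomal RNA 0 of 50 probe sets passed (0% of all, limma) and 3 had an unadjusted p below 0.05, against 9.65% of all. They were a second Ube2w probe set at -0.25 ± 0.10 (adjusted p = 0.492), a second Ube2f probe set at -0.21 ± 0.10 (adjusted p = 0.506) and a dim Ube2e3 probe set at 0.21 ± 0.09 (adjusted p = 0.495). The count was 0 without control polysomal replicate 1 or CD95L-T4 polysomal replicate 3, beside 1471 and 1760 of all 22626 probe sets. It was 1 without CD95L-T4 polysomal replicate 1, beside 1351 of all, and 5 without control polysomal replicate 3, beside 1924 of all. The range was -0.25 to 0.21 with a median of -0.02, and all 50 intervals lay within 1.5-fold, against 95.9% of all probe sets. Among brightest probe sets, Ube2g2 had the smallest p (-0.16 ± 0.08, adjusted p = 0.521), with CD95L-T4 arrays at 9.50, 9.69 and 9.64 and all control polysomal arrays at 9.72 or above. Ube2w followed (-0.20 ± 0.10, adjusted p = 0.534), and its CD95L-T4 arrays read 9.83, 10.24 and 9.79. Replicate 2 lay inside the control range of 10.03 to 10.26 and the other 2 below it. Ube2j1 gave 0.18 ± 0.09 (adjusted p = 0.538), with CD95L-T4 arrays at 9.28, 9.12 and 9.47 and control arrays from 9.04 to 9.21.

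Leaving out CD95L-T4 polysomal replicate 2 changed this comparison. Ube2w was then called lower (-0.34, adjusted p = 0.0249) and Ube2z higher (0.30, adjusted p = 0.0322), which makes 2 of 50 Ube2 probe sets beside 6.13% of all, and 21 of 50 had an unadjusted p below 0.05 beside 21.7% of all. For Ube2z the CD95L-T4 polysomal arrays read 10.35, 9.91 and 10.25, so that replicate 2 fell within the control polysomal range of 9.86 to 10.10 and the other 2 above it.

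**Figure D5:**
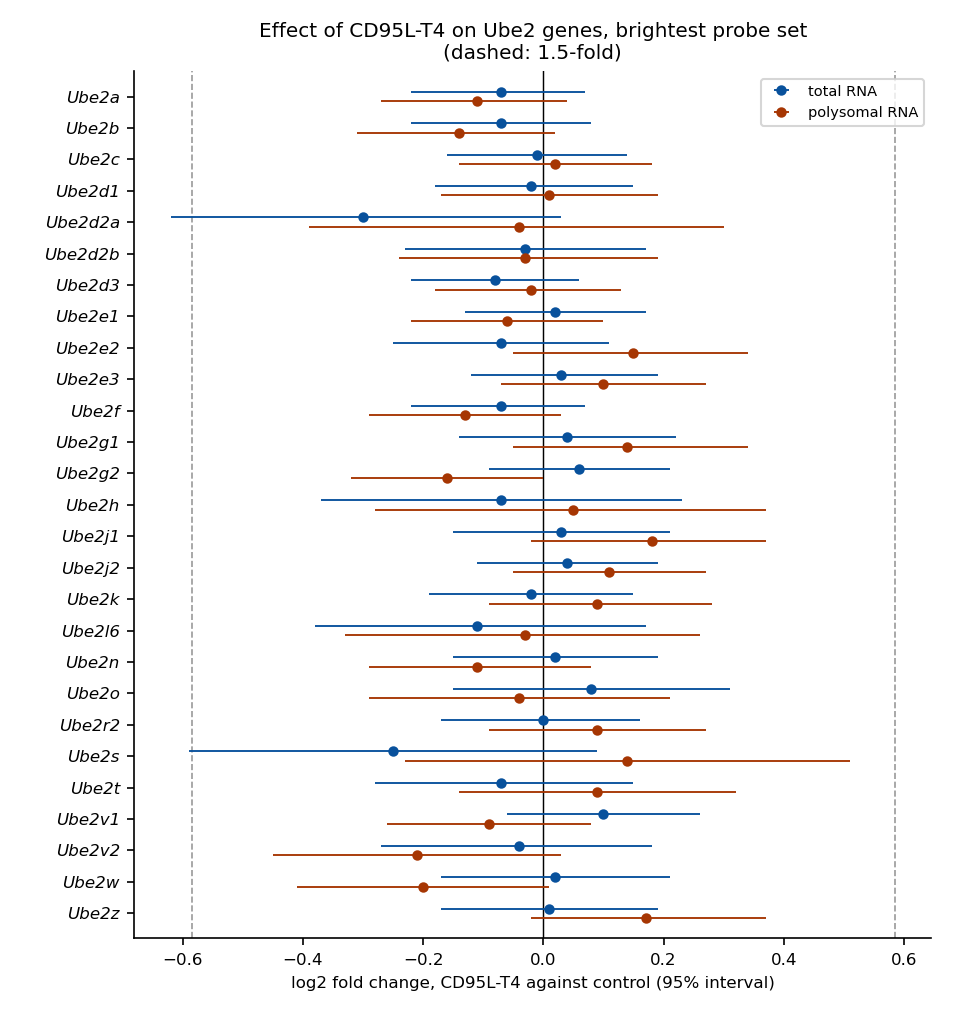
Log2 difference between CD95L-T4 and control cultures (horizontal axis, 95% intervals) in total RNA (blue) and polysomal RNA (red) for the 27 Ube2 genes, brightest probe set; dashed lines mark 1.5-fold changes. The points lie between -0.30 and 0.18, and the intervals of Ube2d2a and Ube2s in total RNA reach a dashed line.

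Whether CD95L-T4 acted differently on polysomal and total RNA was asked by the interaction of treatment and fraction. No Ube2 probe set passed (0% of all, limma), and 1 of 50, a dim Ube2s probe set at 0.39 ± 0.15 (adjusted p = 0.897), had an unadjusted p below 0.05, against 4.38% of all. Without CD95L-T4 polysomal replicate 2 the count was 8 of 50, beside 15.6% of all, and leaving out CD95L-T4 total replicate 1 gave 5 of 50, beside 6.61% of all. It was 2 without control total replicate 1, CD95L-T4 total replicate 2 or control polysomal replicate 4, beside 971, 1172 and 1049 of all 22626 probe sets. No Ube2 probe set passed the adjusted threshold with any single array left out. The values ranged from -0.24 to 0.39 with a median of 0.03. For 45 of 50 the 95% interval lay within 1.5-fold, against 84.2% of all probe sets. Among brightest probe sets the smallest p belonged to Ube2g2 (-0.22 ± 0.11), Ube2v1 (-0.19 ± 0.11) and Ube2e2 (0.22 ± 0.13), each with an adjusted p of 0.897. The polysomal arrays of Ube2v1 read 11.90, 11.80, 11.84 and 11.80 in control and 11.56, 11.93 and 11.74 in CD95L-T4 cultures. CD95L-T4 replicate 2 lay above all of the control arrays and the other 2 below them.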

How the data were processed

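The table used holds log2 signals that the authors deposited already normalised between arrays and rounded to 0.01. Their method is not given in the sources used here. Groups come from the titles, since the treatment field of CD95L-T4 samples gives the cell type instead. The 64 array control probe sets were left out, and of the 22626 tested 20380 carried 1 gene symbol, 691 several and 1555 none in the platform annotation. All 27 Ube2 genes matched RefSeq. No filter on low signal was applied.

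Differences were estimated with limma 3.58.1 in R 4.3.3, fitting the 4 group means to the 15 arrays together, with empirical Bayes moderation (5.78 prior degrees of freedom), two-sided tests and Benjamini-Hochberg adjustment over 22626 probe sets. The probe set with the highest overall mean stood for its gene. Arrays carry no read depth, so their number limits the precision. By rule, array values are printed for the 8 largest called rises between fractions in control cultures (no fall was called), for the 3 smallest p-values of each comparison without calls, and for up to 3 genes per pathway list as means or differences. Ube2c, the uncalled Ube2g1, Ube2z, Ube2h and Ube2o, and other pathway genes were added after their values were seen. The members and lists were chosen with earlier results of these data known. The fit was tested on simulated data.

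Alternatives were 3 other scalings, a floor that drops the dimmest 25% or 50% of probe sets, a separate fit of each pair of groups, a robust trended variance, the replicate number as a block, a size threshold, the mean of a gene's probe sets, and leaving out each array.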

Additional observations from a re-analysis of the deposited data

Results flagged for a closer look

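Among 81 combinations of a Ube2 gene and a group of 4 arrays, 3 held 1 array far from the other 3 by Dixon's ratio, where chance gives about 1 in 20. For Ube2t in control total RNA, replicate 1 read 9.21 and the others 9.08 to 9.09. For Ube2r2 in CD95L-T4 total RNA, replicate 3 read 9.19 and the others 9.35 to 9.37. For Ube2d2b in CD95L-T4 total RNA, replicate 4 read 2.66 and the others 2.80 to 2.81, at a very low signal.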

How the results depend on the processing

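Across the alternatives, 28 to 43 Ube2 probe sets and 15 to 22 Ube2 genes were higher in polysomal RNA of control cultures. In CD95L-T4 cultures 34 to 44 probe sets and 19 to 25 genes were higher. The lowest counts came from the size threshold of 0.5, and the share of all probe sets past that size is not given here. Leaving out single arrays gave 39 to 42 and 41 to 44 probe sets. Of all 22626 probe sets, 6076 to 6927 in control and 5634 to 6026 in CD95L-T4 cultures were then called higher. The count of lower probe sets in control cultures was 0, but 1 under quantile normalisation of all arrays (Ube2k) and 1 with the compared groups alone (Ube2h), and 0 to 1 when single arrays were left out. The CD95L-T4 effect in polysomal RNA gave 0 to 1 higher and 0 to 1 lower probe sets or genes over the arrays left out, the 1 in each case without CD95L-T4 polysomal replicate 2; the cause was not tested. The replicate numbers were not taken to pair arrays: in none of the group pairs compared did every same-numbered pair correlate above 0.1. CD95L-T4 total and control polysomal arrays, which were not compared, did so (0.14 to 0.22); over all groups correlations ran from -0.23 to 0.22, 7 of 21 pairs exceeded 0.1, and 3 of 15 arrays correlated best with their own number. With the replicate number as a block, 41 probe sets in control and 42 in CD95L-T4 cultures were higher, and 22 genes in each. Of all probe sets 6783 and 6057 were then called higher. Of 1503 recomputed values of single genes, 5 lost a call, 5 gained one, 0 reversed and 15 uncalled values changed sign. Dim probe sets limit Ube2d2b, Ube2l6 and the second probe sets of Ube2s and Ube2k; 48 and 44 of the 50 remained when the dimmest 25% or 50% were left out.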
